A study of Mus musculus with 7 samples.

Results

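The genes that make, store and break down monoamines in cultured mouse cortical neurons are described here: *Ddc*, *Th*, *Gch1* and *Qdpr* of synthesis, *Slc18a2* of vesicle storage, and *Maoa* and *Maob* of breakdown. Every probe set that the array annotation gives to 1 of these 7 genes alone was taken, apart from names ending in _x_at, which can bind several transcripts. This gave 10 probe sets of the 42596 left without such names and controls, and 1 probe set of *Qdpr* was dropped by its name. The annotation names 18193 genes in all. The genes were put together with luciferase minus untransduced differences of these arrays in view, so the members' differences in that contrast are a description and carry no test.

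Cortical neurons of C57/Bl6J mouse embryos of embryonic day 16 were grown to day 16 in vitro and their RNA was read on Affymetrix whole-genome mouse arrays. In 4 luciferase cultures the neurons had carried, for 2 weeks, a lentivirus with 1 short hairpin against luciferase, a gene that mice lack; 3 untransduced cultures of the same strain, tissue and age, named naïve in the treatment label, received no virus. A general note on hairpin treatment stands in the labels of both groups, and the treatment label was followed. The vector drives the hairpin from the H1 promoter and also makes green fluorescent protein, so effects of virus, hairpin and reporter cannot be told apart in this contrast. No separate litters or culture days are named in the labels, so each p-value reflects variation among these cultures alone, and that variation may be technical.

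Monoamines are made in a few steps. Tyrosine hydroxylase (*Th*) turns tyrosine into L-DOPA with tetrahydrobiopterin as cofactor, and aromatic L-amino acid decarboxylase (*Ddc*) turns L-DOPA into dopamine and the hydroxylated tryptophan into serotonin. GTP cyclohydrolase (*Gch1*) starts the synthesis of tetrahydrobiopterin and dihydropteridine reductase (*Qdpr*) regenerates it. The vesicular transporter VMAT2 (*Slc18a2*) loads monoamines into vesicles, and the monoamine oxidases A and B (*Maoa*, *Maob*) break them down on the outer mitochondrial membrane. The cell bodies that release dopamine, noradrenaline and serotonin in the cortex lie in the midbrain and brainstem and not in the cortex itself.

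The promoter windows of the genes whose levels the description turns on, and of *Th* and *Slc18a2*, which were under the presence level on every array, are shown for the letters searched in them. Windows of 250 bases before to 50 after a RefSeq start (GRCm38.p6) were found for 6 of the 7 members, 7 windows in all, and none for *Maob*. *Ddc* has a pair of starts, and is known to use alternative first exons in neuronal and in other tissues. Which start was used was not tested. Both *Ddc* windows are on the minus strand, the upstream one at chr11:11898095-11898394 and the downstream one at chr11:11890359-11890658, and the capitals in the upstream one mark TATAAA read on the other strand, 68 bases before the start.
Ddc upstream start: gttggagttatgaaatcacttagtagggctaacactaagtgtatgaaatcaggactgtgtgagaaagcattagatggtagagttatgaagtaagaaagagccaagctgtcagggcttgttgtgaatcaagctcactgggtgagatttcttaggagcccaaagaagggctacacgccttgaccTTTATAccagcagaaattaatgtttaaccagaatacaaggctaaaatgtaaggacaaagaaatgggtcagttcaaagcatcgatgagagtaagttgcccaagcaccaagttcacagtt
Ddc downstream start: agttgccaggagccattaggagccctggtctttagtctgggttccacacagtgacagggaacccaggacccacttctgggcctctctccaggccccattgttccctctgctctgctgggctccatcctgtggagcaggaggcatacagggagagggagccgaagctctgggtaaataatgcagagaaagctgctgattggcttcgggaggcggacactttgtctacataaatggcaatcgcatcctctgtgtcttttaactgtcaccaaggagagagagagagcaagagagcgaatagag
The *Maoa* window (chrX:16619448-16619747, plus strand) is shown with its 2 GC boxes in capitals, letters that Sp1 factors can bind (GGGCGG, here on the other strand), 1 before and 1 after the start.
Maoa: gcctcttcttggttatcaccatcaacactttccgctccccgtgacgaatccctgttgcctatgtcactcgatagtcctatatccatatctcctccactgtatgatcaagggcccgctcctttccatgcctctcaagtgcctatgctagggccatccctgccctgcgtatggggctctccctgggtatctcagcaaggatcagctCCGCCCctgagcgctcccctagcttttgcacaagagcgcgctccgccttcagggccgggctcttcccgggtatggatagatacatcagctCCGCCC
Of the *Th* window (chr7:142899946-142900245, minus strand) and the *Slc18a2* window (chr19:59260628-59260927, plus strand), the stretch around the full cAMP response element TGACGTCA, the site of CREB, is shown with that element in capitals.
Th: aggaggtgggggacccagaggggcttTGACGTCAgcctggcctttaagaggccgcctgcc
Slc18a2: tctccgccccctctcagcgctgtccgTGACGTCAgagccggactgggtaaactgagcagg

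The 3 sets of letters were searched on both strands, and none of their matches in the member windows overlapped. TGACGTCA stood in 2 of the 7 member windows, *Th* (45 bases before the start) and *Slc18a2* (4 bases before it), against 1.79% of all 32851 promoter windows. GGGCGG stood in 5 of the 7, in those of *Th*, *Slc18a2*, *Maoa*, *Gch1* and *Qdpr* and in neither *Ddc* window, against 35.7% of all windows. TATAAA stood in 2, the upstream *Ddc* window and that of *Gch1*, against 13.6%. The *Ddc* windows also held the lowest shares of G and C among the 7, at 41.3% and 54.3%, where the others ran from 57.7% to 64.3%. None of the 3 was in all windows, and the *Ddc* and *Maoa* windows had none of them in common. A match of letters is a description and says nothing of a factor's binding in these neurons.

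In the deposited table the values of the untransduced columns stand 1 row low, and they were moved up by 1 row. The log2 means of both groups then correlated across the 45037 non-control probe sets with a Pearson r of 0.995, against at most 0.421 with any other move of up to 3 rows in either direction. Around each member probe set the same r, over 401 neighbouring probe sets, lay between 0.988 and 0.996, so the move held where the members stand in the table. Levels are RMA intensities on a linear scale. A level under 50 was treated as absent, the presence level of the study's methods, and 22748 probe sets that reached 50 on at least 1 array were tested. Their median log2 difference was 0.056. All 11 measured cortical neuron markers, among them *Snap25*, *Map2* and *Slc17a7*, were above 50 on every array.

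*Ddc*, the decarboxylase shared by dopamine and serotonin synthesis, was the member that differed most. Its probe set 1426215_at read 107, 74.7, 80.8 and 88.6 in luciferase neurons, against 26.1, 30.4 and 25.5 in untransduced neurons. Every luciferase array was above the presence level and every untransduced array below it, with a gap of 44.4 between the groups. The mean was 87.8 ± 14.0 in luciferase neurons (SD, n = 4) and 27.3 ± 2.65 in untransduced neurons (SD, n = 3), a log2 difference of 1.67 with a standard error of 0.12. Since the untransduced level counts as absent, the fold is given as a bound: the luciferase level was at least 1.74-fold above 50. The log2 difference stayed between 1.57 and 1.75 under all 14 alternative settings. Those that change the filter on level, the _x probe sets or the eBayes step cannot alter it, so only the remaining settings bear on its stability. This probe set reached the tested set only through the luciferase arrays. In bulk RNA, fewer cells that express a gene and less RNA per cell cannot be told apart.

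The other *Ddc* probe set, 1430591_at, stayed far under the presence level. It read 13.7, 11.0, 15.5 and 12.3 in luciferase neurons, against 17.1, 18.8 and 11.8 in untransduced neurons, and the groups overlapped. Its log2 difference was -0.26 with a standard error of 0.16. The probe sets of *Ddc* therefore did not show the same difference, and the statement on *Ddc* rests on 1426215_at alone.

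*Th*, which encodes the enzyme that makes the substrate of DDC in catecholamine synthesis, was under the presence level on all 7 arrays. It read 20.4, 20.5, 22.9 and 23.4 in luciferase neurons, against 25.4, 25.99 and 25.5 in untransduced neurons. All luciferase values lay below all untransduced ones, by a gap of 2 intensity units, at a level where no fold is given. The log2 difference was -0.24 (standard error 0.087) and ran from -0.33 with each array centred on its median to -0.15 with quantile normalization. *Th* was thus under the presence level in both groups, while *Ddc* 1426215_at was above it in luciferase neurons.

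*Gch1* and *Qdpr*, the genes of the tetrahydrobiopterin cofactor, stood at opposite ends of detection. *Gch1* straddled the presence level: probe set 1420499_at read 41.1, 42.9, 33.4 and 58.5 in luciferase neurons, against 40.8, 41.3 and 52.0 in untransduced neurons. Probe set 1429692_s_at of the same gene read 28.0, 49.7, 44.3 and 48.0 in luciferase neurons, against 40.8, 34.9 and 50.6 in untransduced neurons. In both the groups overlapped widely, with log2 differences of -0.04 and -0.0063 and standard errors of 0.17 and 0.20, and leaving out single arrays moved them to either side of 0. Luciferase replicate 4 was the only luciferase array over 50 in the first, and untransduced replicate 7 was over 50 in both.

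*Qdpr* was measured well above the presence level on every array. It read 1938, 2177, 1921 and 1982 in luciferase neurons, against 1870, 1825 and 1719 in untransduced neurons. The groups did not overlap, with a gap of 51.8. The log2 difference was 0.15 with a standard error of 0.076, under that of *Maoa* and *Maob*, and centring of the arrays on their medians gave 0.055.

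*Slc18a2*, the vesicular transporter, was under the presence level throughout. It read 20.0, 27.9, 26.7 and 24.5 in luciferase neurons, against 17.7, 20.9 and 23.3 in untransduced neurons. The groups overlapped, since luciferase replicate 1 lay below untransduced replicates 6 and 7, and the log2 difference was 0.26 with a standard error of 0.13.

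**Figure D1:**
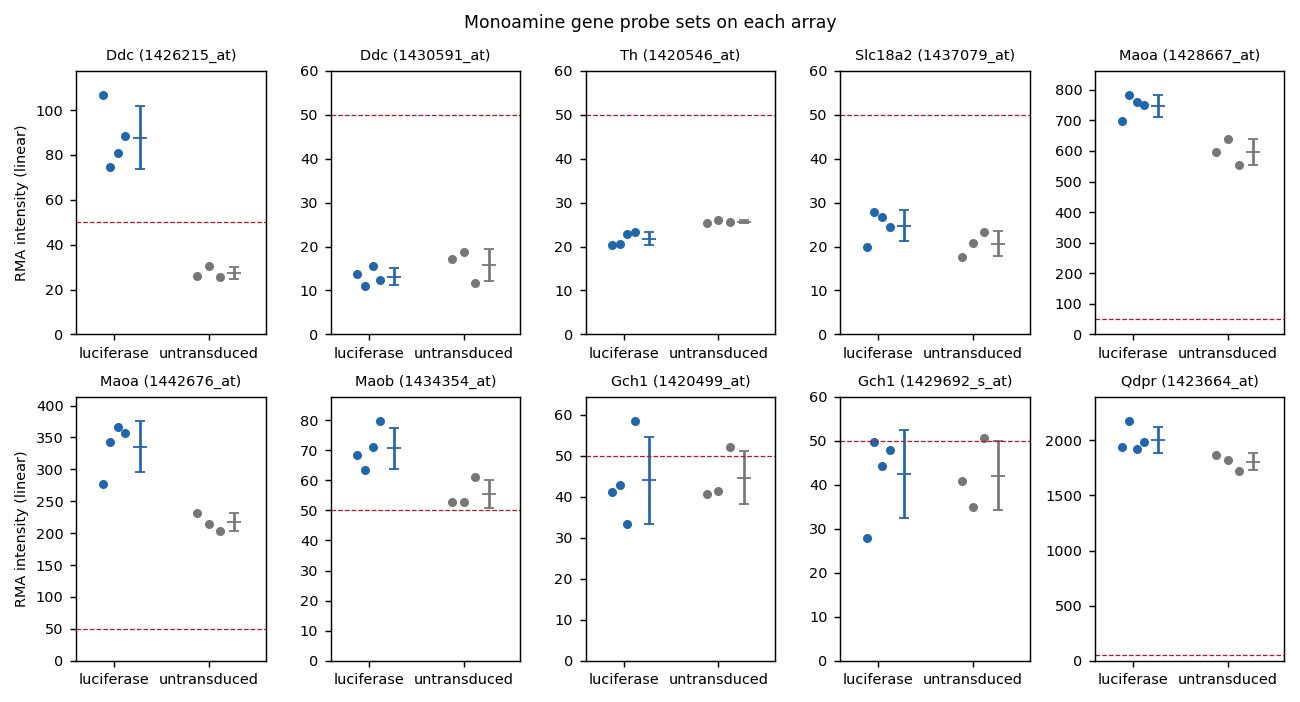
RMA intensity (linear, each axis from 0) of the 10 probe sets on 4 luciferase arrays (blue) and 3 untransduced arrays (grey); points are arrays, bars beside them give mean ± SD, and the dashed line is the presence level of 50. In Ddc 1426215_at the luciferase arrays lie above the line and the untransduced arrays below it, and Th, Slc18a2 and Ddc 1430591_at lie below it in both groups.

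*Maoa*, the oxidase that prefers serotonin and noradrenaline, was well expressed and higher on both of its probe sets in luciferase neurons. Probe set 1428667_at read 697, 783, 761 and 751 in luciferase neurons, against 597, 639 and 556 in untransduced neurons. The groups did not overlap, with a gap of 58.1, and the mean was 748 ± 36.5 in luciferase neurons (SD, n = 4) and 597 ± 41.6 in untransduced neurons (SD, n = 3). The log2 difference was 0.33 with a standard error of 0.079, or 1.25-fold. Probe set 1442676_at read 277, 342, 367 and 356 in luciferase neurons, against 232, 215 and 204 in untransduced neurons. The groups were apart here too, by 44.7, with luciferase replicate 1 the nearest to the untransduced arrays. The log2 difference was 0.62 (standard error 0.11), or 1.54-fold, and it stood under 1.5-fold with quantile normalization (0.53), with each array centred on its median (0.53), with array weights (0.56), without luciferase replicate 3 (0.58) and without untransduced replicate 7 (0.58).

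*Maob*, the oxidase that prefers phenylethylamine and is known from astrocytes and serotonin neurons, lay just above the presence level on every array. It read 68.4, 63.4, 70.9 and 79.7 in luciferase neurons, against 52.8, 52.8 and 61.0 in untransduced neurons. The groups did not overlap, but the gap between luciferase replicate 2 and untransduced replicate 7 was only 2.42. The mean was 70.6 ± 6.84 in luciferase neurons (SD, n = 4) and 55.5 ± 4.72 in untransduced neurons (SD, n = 3), with a log2 difference of 0.35 and a standard error of 0.096. Astrocyte markers were higher in the same arrays. Of 10 listed markers 9 were tested, and 6 of them, *Gfap*, *Aldh1l1*, *Aqp4*, *Slc1a2*, *Gja1* and *S100b*, rose by adjusted p from limma and 0 fell, while *Gjb6* was under 50 on all arrays. Over all tested probe sets 16.2% were higher and 8.26% lower by this limit. The summed level of the 10 markers was 24400 to 26684 in luciferase neurons and 18115 to 20151 in untransduced neurons. Its largest term was *Aldoc*, at 9937 in luciferase neurons and 8466 in untransduced neurons, which did not pass (adjusted p = 0.081 from limma). The part of astrocyte RNA in the differences of *Maob*, *Maoa* or *Ddc* was not tested.

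Of the members as a group, 4 of the 7 genes had a probe set at or above 50 in every luciferase array, namely *Ddc*, *Maoa*, *Maob* and *Qdpr*. The same held in untransduced neurons for 3 genes, all of these but *Ddc*. By the limits of an adjusted p of at most 0.05 and 1.5-fold (limma), 2 of the 7 tested member probe sets were called higher, *Ddc* 1426215_at and *Maoa* 1442676_at, and 0 lower (the other 3 were under 50 on all arrays and not tested), where 2.9% of all tested probe sets were called higher, 1.29% lower and 4.19% in either direction. Centring each array on its median turned the split over all tested probe sets to 410 higher and 527 lower, against 659 and 294. At any fold 4 of the 7 were past the adjusted p on the higher side and 0 on the lower, where 16.2% and 8.26% of all tested probe sets were. The groups did not overlap in 5 probe sets that were higher in luciferase neurons and in 1 that was lower, where 13.3% and 12.8% of the 42596 probe sets did so. Among tested probe sets alone these shares were 22.5% and 12.3%. Nothing is read from these counts, because the contrast was in view when the genes were chosen. The median log2 difference over the 10 probe sets was 0.21, and the range ran from -0.26 to 1.67. The coefficient of variation between replicates was 4.88% to 23.9% over luciferase arrays and 1.29% to 22.9% over untransduced arrays.

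**Figure D2:**
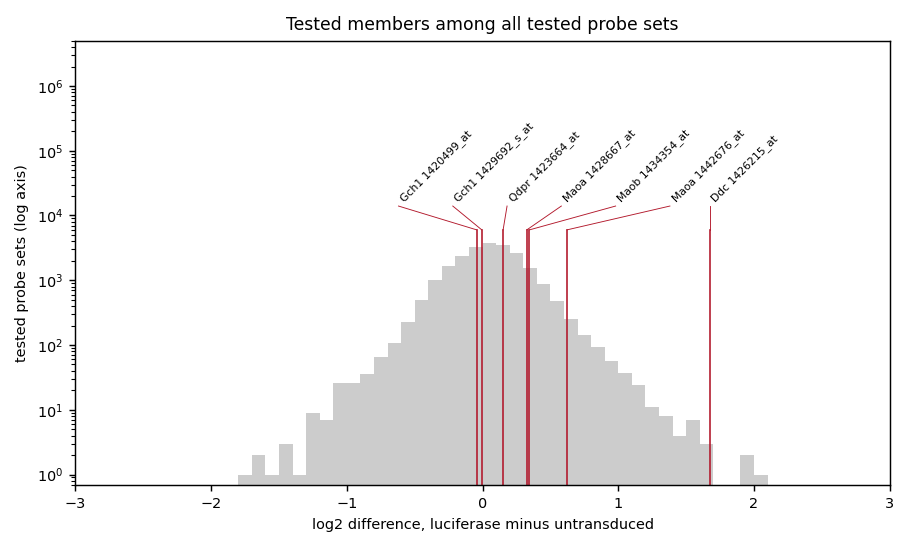
Histogram of the log2 difference, luciferase minus untransduced, over the 22748 tested probe sets (bins of 0.1, log axis), with a red line for each of the 7 tested member probe sets. Ddc 1426215_at stands in the right tail at 1.67, and the Gch1 probe sets stand at -0.04 and -0.0063 near the centre.

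The question whether the rest of the monoamine machinery was present, and whether it moved, was put to 5 lists written from the roles of the genes, but with earlier results of these arrays known, so their p-values are not independent evidence. Of 51 listed genes, 40 had a probe set named for them alone, and 20 of them stayed under 50 on all arrays. Of the 20 tested, 3 were higher and 5 lower in luciferase neurons by the adjusted p of limma, and 12 did not pass. Over all tested probe sets 16.2% were higher and 8.26% lower by the same limit. Among the 5 lower genes, *Dbh* passed the filter on level only through the untransduced arrays. The median log2 difference of the 20 tested genes was 0.021, against 0.056 over all tested probe sets. With the 1.5-fold limit 1 was higher and 1 lower, where 2.9% and 1.29% of all tested probe sets were.

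Among the other synthesis enzymes, both hydroxylases of serotonin synthesis were under the presence level. *Tph1* and *Tph2*, the tryptophan hydroxylases, read 9.29 to 11.3 and 8.36 to 9.51 in luciferase neurons, against 11.5 to 13.1 and 7.24 to 10.4 in untransduced neurons. *Dbh*, which turns dopamine into noradrenaline, read 43.6, 45.7, 44.9 and 41.0 in luciferase neurons, against 61.6, 61.2 and 53.5 in untransduced neurons. It was above the presence level only on the untransduced arrays, which put luciferase neurons at least 1.17-fold lower against 50, and it passed the filter on level only through the untransduced arrays, so its difference is given by this bound alone. A second *Dbh* probe set was under 50 on all arrays. *Pnmt*, which turns noradrenaline into adrenaline, fell by 0.28 on the log2 scale on the probe set with the highest level (adjusted p = 0.046 from limma), under the 1.5-fold limit. The adjusted p of *Pnmt* ran from 0.0021 to 0.17 over 14 alternatives and did not pass under 7 of them. Its other tested probe set had a log2 difference of -0.12 (adjusted p = 0.35 from limma). In this list 3 of 6 measured genes were tested, 2 of them lower (*Dbh*, open to the limit just given, and *Pnmt*) and 0 higher.

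Of the genes that make or recycle tetrahydrobiopterin and activate vitamin B6, the cofactor of DDC, 5 of 6 measured genes were tested, 1 was higher and 0 lower. The higher one was *Pcbd2*, a pterin dehydratase that also serves as a cofactor of HNF1 factors, at 440 ± 24.6 in luciferase neurons (SD, n = 4) and 356 ± 23.2 in untransduced neurons (SD, n = 3). Its log2 difference was 0.31 (standard error 0.080, adjusted p = 0.023 from limma), under the 1.5-fold limit. The adjusted p ran from 0.015 to 0.082 over 14 alternatives and did not pass under 6 of them. *Pts* and *Spr*, the enzymes after GTP cyclohydrolase, had log2 differences of -0.049 and 0.068, and *Pdxk*, the pyridoxal kinase, one of 0.070 on its probe set of highest level. The other tested *Pdxk* probe sets had log2 differences of -0.14 and -0.19 and did not pass (adjusted p = 0.47 and 0.21 from limma). *Gchfr*, the feedback regulator of GTP cyclohydrolase, was under 50 on all arrays.

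Carriers moved in both directions. *Slc6a3*, the plasma membrane dopamine transporter, read 105, 107, 82.9 and 96.2 in luciferase neurons, against 64.0, 65.7 and 60.5 in untransduced neurons. It rose with no overlap of the groups, by 0.62 on the log2 scale (standard error 0.099, adjusted p = 0.0033 from limma). Its adjusted p passed under all 14 alternatives (0.00097 to 0.014), and it stood under 1.5-fold with each array centred (0.52) and without luciferase replicate 1 (0.58) or 2 (0.57). *Slc7a5* and *Slc3a2* encode the light and heavy chain of the carrier LAT1, which brings tyrosine, tryptophan, L-DOPA and other large neutral amino acids into cells.

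*Slc7a5* read 1065, 1584, 1389 and 1101 in luciferase neurons, against 2056, 1678 and 2392 in untransduced neurons. It fell by 0.67 on the log2 scale (standard error 0.16, adjusted p = 0.017 from limma), but without untransduced replicate 5 the adjusted p was 0.0503 and without untransduced replicate 7 the log2 difference was -0.55. *Slc3a2* fell by 0.48 (standard error 0.10, adjusted p = 0.010 from limma), at 2976 ± 268 in luciferase neurons (SD, n = 4) and 4156 ± 461 in untransduced neurons (SD, n = 3). Both encode chains of a general amino acid carrier, which is not particular to monoamine cells. *Slc6a4*, the serotonin transporter, and *Slc18a1*, the other vesicular transporter, were under 50 on all arrays. *Slc6a2*, the noradrenaline transporter, was over 50 on 1 of 4 probe sets, with a log2 difference of -0.096 (adjusted p = 0.34 from limma). In all, 5 of 9 measured carriers were tested, 1 of them higher and 2 lower.

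Among breakdown enzymes other than the oxidases, 6 of 8 measured genes were tested, 1 was higher and 0 lower. *Aldh7a1*, an aldehyde dehydrogenase best known from lysine breakdown, rose by 0.33 on the log2 scale on its probe set of highest level (standard error 0.076, adjusted p = 0.015 from limma). The adjusted p was 0.059 and 0.053 without untransduced replicate 5 or 6. Its other tested probe set did not pass (log2 difference 0.17, adjusted p = 0.19 from limma), and a further one, under 50 on all arrays, had -0.20. *Aldh2*, which oxidises the aldehydes that the monoamine oxidases make, had a log2 difference of 0.11 (standard error 0.10, adjusted p = 0.45 from limma). *Hnmt*, which methylates histamine, differed by -0.21 (limma, standard error 0.069, adjusted p = 0.052), with no overlap between 333 to 355 in luciferase neurons and 383 to 416 in untransduced neurons.

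**Figure D3:**
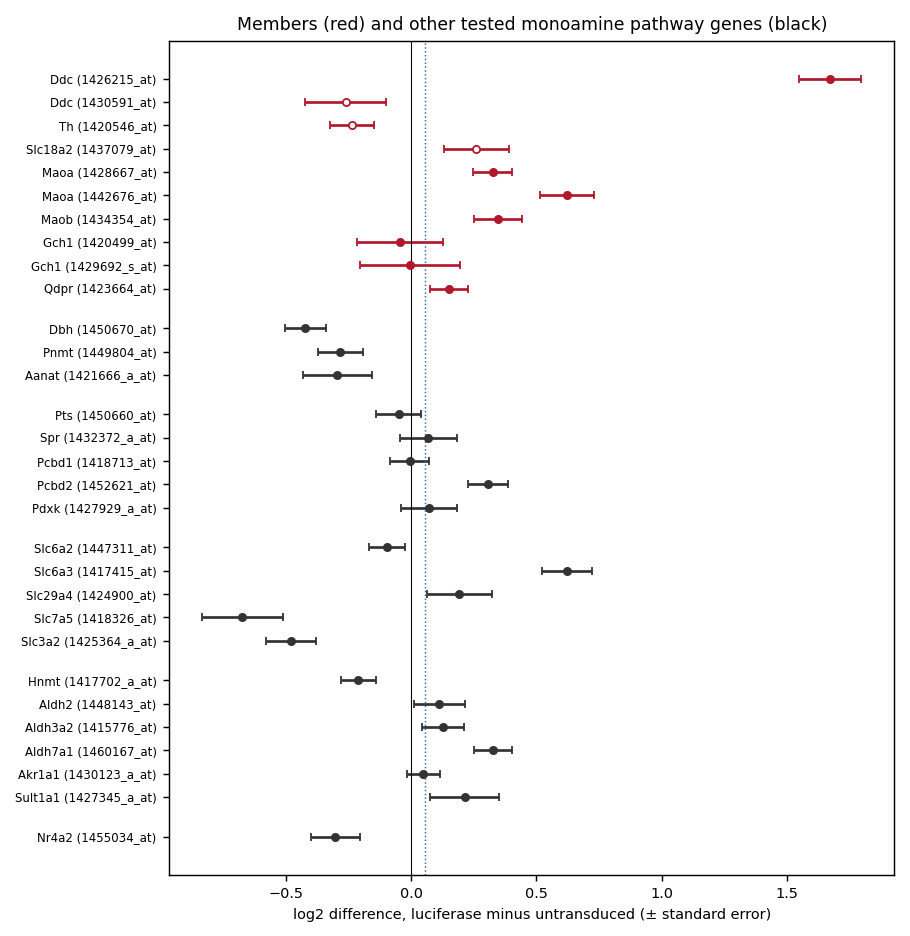
Log2 difference, luciferase minus untransduced, with its standard error for the 10 member probe sets (red; open circles are under 50 on all arrays) and for the 20 tested genes of the pathway lists (black), grouped by list. The dotted line is the median of all tested probe sets, 0.056; Ddc 1426215_at stands alone at 1.67, Slc6a3 and Maoa 1442676_at at 0.62, and Slc7a5 lies lowest at -0.67.

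The transcription factors that specify dopamine, serotonin and noradrenaline neurons were absent by level, apart from *Nr4a2*. Of 11 measured, 10 were under 50 on all arrays, among them *Pitx3*, *Lmx1a*, *Foxa2* and *Gata3*. *Nr4a2*, a factor of dopamine neurons that is also made in cortical neurons, read 457, 459, 436 and 505 in luciferase neurons, against 643, 501 and 580 in untransduced neurons, with luciferase replicate 4 above untransduced replicate 6. These values are of its probe set of highest level, which fell by 0.30 on the log2 scale (standard error 0.097, adjusted p = 0.048 from limma). That adjusted p ran from 0.0047 to 0.17 over 14 alternatives and did not pass under 7 of them. Another tested *Nr4a2* probe set passed too (log2 difference -0.33, adjusted p = 0.024 from limma). The other tested ones did not (-0.11 and -0.17, adjusted p = 0.62 and 0.40 from limma), and the rest were under 50 on all arrays. Of 9 measured markers of monoamine neurons, each taken by its probe set of highest level, 2 were above 50 on all arrays (*Slc6a3* and *Slc6a2*). Another 2 were above 50 in 1 group only (*Ddc* in luciferase neurons and *Dbh* in untransduced neurons), and 5 on no array (*Th*, *Slc18a2*, *Slc6a4*, *Tph2* and *Pitx3*). The remaining probe sets of *Slc6a2*, *Ddc* and *Dbh* were under 50 on all arrays.

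Markers of other cell types gave the setting of these values. Of 11 measured cortical neuron markers, *Tbr1* (log2 difference 0.61, adjusted p = 0.0020 from limma) and *Slc17a7* (0.39, adjusted p = 0.040) rose, *Neurod6* fell (-0.68, adjusted p = 0.0021) and 8 did not pass. Their sum, which hides these opposite moves, stood at 102% ± 2.34 of the untransduced mean in luciferase neurons (SD, n = 4), where the untransduced arrays had an SD of 4.52% (n = 3). The astrocyte sum stood at 132% ± 5.10 in luciferase neurons, with an SD of 5.35% over the untransduced arrays. The vascular and meningeal sum stood at 66.0% ± 7.19 in luciferase neurons, with an SD of 4.84% over the untransduced arrays. The fall of this sum rested on 1 gene, although *Dcn* was not the only lower gene in the list. Without *Dcn*, a proteoglycan of fibroblasts that averaged 421 in luciferase neurons and 835 in untransduced neurons, the sum of the other 11 markers stood at 97.8% ± 2.89, with an SD of 8.35% over the untransduced arrays, a sum chosen after seeing the data. In the same list *Flt1* fell too (log2 difference -0.43, adjusted p = 0.0043 from limma). *Col1a2* was above 50 only on the untransduced arrays, which put luciferase neurons at least 1.13-fold lower against 50. *Pdgfrb*, a receptor of pericytes, rose, at 78.3 in luciferase neurons and 49.3 in untransduced neurons (log2 difference 0.70, adjusted p = 0.0095 from limma). Its untransduced arrays read 38.0, 47.8 and 62.05, so only 1 of them was over the presence level. *Kdr*, *Lum* and *Rgs5* did not pass (-0.25, 0.12 and 0.21), and the endothelial genes *Cldn5*, *Pecam1*, *Tek* and *Cdh5* were under 50 on all arrays. Of 10 microglia markers 7 were under 50 on all arrays. The oligodendrocyte lineage sum stood at 103% ± 7.86 in luciferase neurons, with an SD of 1.33% over the untransduced arrays. This sum also hides opposite moves. *Mbp* rose (log2 difference 0.39, adjusted p = 0.015 from limma). *Mag* was above 50 only on the untransduced arrays, which put luciferase neurons at least 1.14-fold lower against 50. The part of these cell types in the member differences was not tested.

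**Figure D4:**
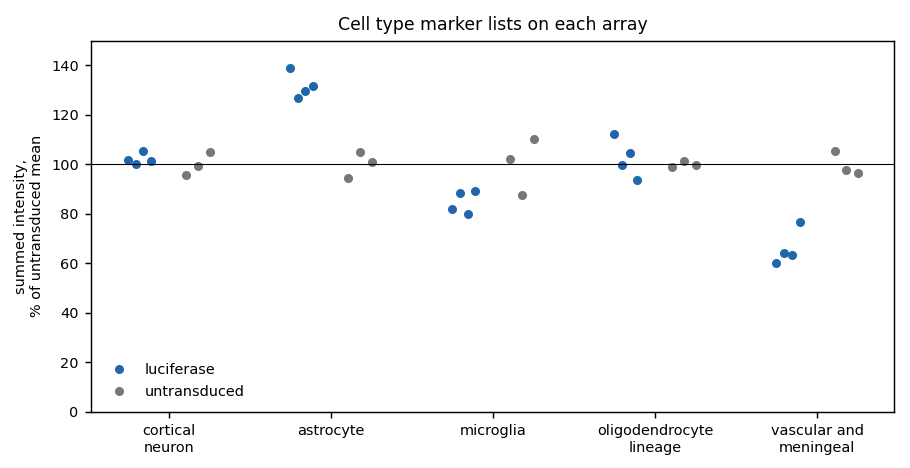
Summed RMA intensity of the probe sets that stand for each marker list, as percent of the mean of the untransduced arrays, for 4 luciferase arrays (blue) and 3 untransduced arrays (grey); points are arrays. The astrocyte sum lies above all untransduced arrays in luciferase neurons at a mean of 132%, and the vascular and meningeal sum lies below them at 66.0%. Without *Dcn* the latter stood at 97.8%, within the range of the untransduced arrays, and that sum is not drawn.

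For the 5 members whose highest probe set was tested (not *Th* and *Slc18a2*), the genes whose level followed that probe set most closely over the 7 arrays were found by Pearson r of log2 values across all tested probe sets. Because the arrays fall into 2 groups, a high r reflects first of all a shared difference between the groups, and r is given as a description without a p. For *Ddc* 1426215_at the nearest genes were *Dio2* (r = 0.997), 2810001G20Rik (0.997), *Cyp4v3* (0.997), *Id4* (0.996) and *Dmrt2* (0.996). *Dio2*, which makes active thyroid hormone, averaged 1213 in luciferase neurons and 746 in untransduced neurons, and *Dmrt2* averaged 63.3 in luciferase neurons and 27.7 in untransduced neurons (under the presence level, as *Ddc* was). For *Maoa* 1428667_at they were *Sh3gl2* (0.990), *Dhrs11* (0.986) and *Gnb4* (0.984), and for *Maob* they were *Tbc1d30* (0.998), *Zfpm2* (0.995) and *Exoc3* (0.995). For *Qdpr* they were *Dync1li2* (0.983), *Sptlc1* (0.982) and *Cacng3* (0.981). *Gch1* had no partner as near, with *Thra* (0.948), *Rabggta* (0.938) and *Ift52* (0.928).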

How the data were processed

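RNA of 4 luciferase and 3 untransduced cultures was hybridised to 1 Affymetrix array each, and groups follow the treatment label. The authors normalized the arrays by RMA (version, and which arrays shared a normalization, not given in the sources used here). They deposited intensity values on a linear scale, which lay between 4.69 and 23763 here. Precision is limited by the number of arrays.

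The untransduced columns were moved up by 1 row. Left out of the test were 64 controls, 2441 probe sets whose name holds _x and those under 50 on every array, so that 22748 of 45101 remained. The methods used the same level over all samples of the study, whereas here only the 7 arrays of these groups entered. The deposited values were put on the log2 scale and fitted with limma 3.58.1 under R 4.3.3, by lmFit and eBayes without covariates, as luciferase minus untransduced. P-values were adjusted by Benjamini-Hochberg across the tested probe sets. Calls needed an adjusted p of 0.05 or less together with a change of 1.5-fold or more. For probe sets under 50 on all arrays the standard error is that of the unfiltered fit. The array annotation gave 1 gene to 34945 non-control probe sets, several to 932 and none to 9160; Entrez IDs tied 34741 of them to a RefSeq table of GRCm38.p6, with 0 symbols changed. A listed gene is represented by its probe set of highest mean level. The members, the lists and the rule for named genes (all members, key pathway genes, called genes, up to 4 others past the adjusted p in each list, and nearest genes by correlation) were chosen with earlier results of these data known. The fit was tested on simulated data. Settings tried beside the main one were an unfiltered table, a minimum of 100 on 1 array, quantile normalization, median centring of arrays, trend and robust eBayes, array weights, retained _x probe sets, calls at any fold, and omission of each array.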

Additional observations from a re-analysis of the deposited data

How the results depend on the processing

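No paired analysis was possible because the groups share no replicate number (1 to 4 and 5 to 7). The number of member probe sets called higher was 2, and it was 1 with quantile normalization, with each array centred on its median and with array weights, where *Maoa* 1442676_at stood under 1.5-fold and *Ddc* 1426215_at remained. It was 4 at any fold, and from 1 to 2 when single arrays were left out. The number called lower stayed at 0. The number of pathway genes called higher was 1, with 0 when each array was centred, 3 at any fold and 0 to 1 when single arrays were left out; that of genes called lower was 1, with 5 at any fold and 0 to 1 when single arrays were left out. Over all tested probe sets 659 were called higher and 294 lower. With each array centred the counts were 410 and 527, with quantile normalization 545 and 388, and at any fold 3688 and 1880. Centring moved the median log2 difference of all tested probe sets to -0.040, against 0.056 before. The cause of these moves was not tested, apart from the fold limit itself. The log2 differences of the member probe sets kept their sign under the alternatives run (14 for tested probe sets, 13 for the 3 under 50 on all arrays, which had no fit with array weights), except both of *Gch1*, which lay on the other side of 0 in 4 of 14. Among these alternatives, changes of the filter on level, of the _x probe sets and of the eBayes step cannot alter a log2 difference. Without *Dcn*, an alternative chosen after seeing the data, the vascular and meningeal sum in luciferase neurons was 97.8% of the untransduced mean, against 66.0% with it. Dixon's 95% criterion was applied to 23 of the probe sets named or listed here, and no luciferase array stood apart in those. That check does not speak for the other probe sets, where single luciferase arrays can lie apart. *Slc17a7* read 1018 in luciferase replicate 4, against 1094 to 1098 in the other luciferase arrays. *Aldh2*, on its probe set of highest level, read 327 in luciferase replicate 1, against 281 to 285 in the other luciferase arrays. Low levels limit *Th*, *Slc18a2*, *Gch1* and the second *Ddc* probe set, for which a difference was not detectable above the presence level.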
